A study of Mus musculus with 18 samples.

Results

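The 10 transcripts described here are Gm42048, Gm9522, Gm10154, Gm5900, Gm4705, Gm5586, Gm9008, Gm15459, Rpl34-ps1 and Rps3a3, 10 of the 45777 genes of the deposited table. They were picked because their counts differed widely between KO and WT cells at the 3 levels sampled, so their KO against WT values, fold changes and counts of calls included, are a description and support nothing. The RNA came from 18 libraries of mouse BMMC, mast cells grown from bone marrow in culture. KO libraries carry LysM-Cre with both Sirt6 alleles flanked by loxP (flox/flox), and WT libraries carry the same flox/flox alleles and are labelled with no Cre. Each genotype was sampled at 0, where the labels name no agent, and at 20 and 60, where they name LPS, while the title of the series names the IgE receptor FcεRI. The labels give neither a unit for these levels nor the strain, age or sex of the mice. Each of the 6 groups holds 3 libraries, numbered 4120, 414 and 6110. The labels do not say what a number stands for, so a p-value here reflects only how far these libraries spread, which may be technical.

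Sirt6 encodes a nuclear NAD-dependent deacylase, and Cre expressed from the lysozyme M promoter is active in myeloid cells. Gene-level Sirt6 counts were 10.4 to 21.1 CPM (read counts scaled to library size with TMM factors) in the 9 KO libraries and 9.73 to 16.9 CPM in the 9 WT libraries. The labels do not say which exons are floxed, so a gene-level count is no check of the genotype labels.

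A processed pseudogene is a spliced mRNA that was reverse transcribed and inserted elsewhere in the genome, so it lacks the introns of its parent gene and mostly comes without its promoter. Genes that are highly expressed in the germ line, among them those of ribosomal proteins and Gapdh, have many such copies in mammals. A young copy differs from its parent at few bases, and a short read can match both. Each value below is therefore the count that the authors' pipeline assigned to a copy, and copies and parents are uncertain wherever their sequences are near-identical. Whether a genotype has fewer cells that use a copy or less RNA of it per cell cannot be told apart in bulk RNA.

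The description column of the table names a ribosomal protein for a pair of the 10: Rpl34-ps1 is ribosomal protein L34, pseudogene 1, and Rps3a3 is ribosomal protein S3A3. The former names its parent, and the latter only shares a name stem with Rps3a1. The other 8 are described only as predicted genes or predicted pseudogenes. Of the 10, 9 had a transcript in GENCODE M21 (GRCm38), and the parent of each was its best match among protein-coding transcripts. Rpl34, a protein of the large ribosomal subunit, was the parent of Rpl34-ps1, Gm10154 and Gm4705. Rps3a1, a protein of the small subunit, was the parent of Rps3a3 and Gm5586. Gm5900 matched Lamtor3, a scaffold subunit of the Ragulator complex on lysosomes. Gm15459 matched Hspa8, the constitutive cytosolic HSP70 chaperone, Gm9008 matched Rnf26, a RING-type ubiquitin ligase of the endoplasmic reticulum, and Gm9522 matched the glycolytic enzyme gene Gapdh. No parent was assigned to Gm42048, a predicted gene that the deposited table calls protein-coding, so it is in the set by its difference and not as a known pseudogene. The deposited table also calls Rpl34-ps1 protein-coding, and GENCODE does so for Gm9008, while the other of these sources names each of the pair a pseudogene.

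The 9 copies fall into 2 kinds by their likeness to the parent. Identity was 99.7% for Gm15459 over 1941 bases, 99.5% for Gm5900 over 375 bases, 99.4% for Rpl34-ps1, 98.9% for Gm10154 and 98.3% for Gm4705 over 354 bases each. It was 98.9% for Rps3a3 and 98.5% for Gm5586 over 795 bases, and 99.1% for Gm9008 over 2322 aligned bases. Gm9522 stood apart with 85.8% identity to Gapdh, 56 mismatches and 87 gap bases. Of the 827 windows of 100 bases in Gm9522, 0 occurred exactly in Gapdh, against 1342 of 1842 windows of Gm15459 in Hspa8 and 118 of 255 windows of Rpl34-ps1 in Rpl34.

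The sequences of the 3 Rpl34 copies and of Gm5900 are shown beside their parents, because a handful of bases is all that separates the counts given below. They are taken from GENCODE M21 transcripts and run 5′ to 3′ to the last base of each copy, from base 122 of 354 for Rpl34 and its copies and from base 101 of 375 for Lamtor3 and Gm5900, since no difference lies before these. Capitals in a copy mark the bases at which it differs from its parent. Each copy, and the stretch of the parent that it matches, is in full an open reading frame from a start codon to a stop codon. In GRCm38, Rpl34-ps1 lies at chr6:71124610-71124963 on the plus strand, Gm10154 at chr4:83505185-83505538, Gm4705 at chr17:66413631-66413984 and Gm5900 at chr7:104949915-104950289, the last 3 on the minus strand.
Rpl34: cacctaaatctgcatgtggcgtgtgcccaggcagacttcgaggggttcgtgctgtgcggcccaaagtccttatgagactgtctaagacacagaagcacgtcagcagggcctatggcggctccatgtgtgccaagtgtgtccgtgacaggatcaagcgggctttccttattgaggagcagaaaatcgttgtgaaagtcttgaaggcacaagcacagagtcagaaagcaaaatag
Rpl34-ps1: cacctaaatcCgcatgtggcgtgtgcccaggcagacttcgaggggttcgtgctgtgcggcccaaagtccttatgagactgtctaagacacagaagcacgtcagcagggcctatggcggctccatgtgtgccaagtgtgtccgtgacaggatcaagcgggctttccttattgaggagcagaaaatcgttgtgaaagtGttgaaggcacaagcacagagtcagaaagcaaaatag
Gm10154: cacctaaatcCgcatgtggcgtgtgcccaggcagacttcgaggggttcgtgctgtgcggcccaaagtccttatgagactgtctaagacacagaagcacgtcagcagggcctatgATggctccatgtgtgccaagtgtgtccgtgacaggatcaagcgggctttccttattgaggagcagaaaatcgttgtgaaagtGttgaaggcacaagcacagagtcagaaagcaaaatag
Gm4705: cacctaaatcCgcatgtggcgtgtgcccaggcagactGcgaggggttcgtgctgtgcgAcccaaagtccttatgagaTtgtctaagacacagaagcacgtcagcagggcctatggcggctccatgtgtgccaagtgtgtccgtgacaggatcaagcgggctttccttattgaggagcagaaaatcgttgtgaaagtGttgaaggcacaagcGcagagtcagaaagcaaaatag
Lamtor3: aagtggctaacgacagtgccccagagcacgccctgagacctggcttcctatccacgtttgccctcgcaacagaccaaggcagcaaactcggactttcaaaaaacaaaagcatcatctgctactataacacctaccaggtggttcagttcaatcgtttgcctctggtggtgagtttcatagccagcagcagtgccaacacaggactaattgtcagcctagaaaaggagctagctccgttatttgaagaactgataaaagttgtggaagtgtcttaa
Gm5900: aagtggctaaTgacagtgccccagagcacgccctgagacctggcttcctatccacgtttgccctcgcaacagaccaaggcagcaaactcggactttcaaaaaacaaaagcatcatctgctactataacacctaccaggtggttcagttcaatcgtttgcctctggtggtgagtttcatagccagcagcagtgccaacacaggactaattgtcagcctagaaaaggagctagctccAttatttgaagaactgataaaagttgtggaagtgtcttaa

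All 3 Rpl34 copies share the substitutions T132C and C318G, written with the parent's base first, the position counted from 1 at the 5′ end of the whole copy, and the base of the copy last. Rpl34-ps1 carries only this pair. Gm10154 has in addition G236A and C237T, and Gm4705 has T159G, G180A, C199T and A333G. Rpl34-ps1 therefore differs from Gm10154 at 2 bases and from Gm4705 at 4. Gm5900 differs from Lamtor3 at C111T and G336A. The Rps3a1 copies Rps3a3 and Gm5586 have 9 and 12 substitutions and share T216C and T534C. Gm15459 differs from Hspa8 at 5 bases, G114A, C414T, C549T, G1222A and C1440T.

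Total counts ran from 21468695 to 42265435 in KO libraries and from 20026054 to 36474588 in WT libraries. Genes encoded in mitochondrial DNA took 4.09 to 34.7% of the counts in KO libraries and 6.56 to 41.9% in WT libraries. All 12 mast cell markers examined, Kit, Fcer1a and Cpa3 among them, had counts in all 18 libraries. Summed neutrophil markers (9 genes) were at 7.15 to 26.9 CPM in KO libraries and at 0 to 5.29 CPM in WT libraries, and summed macrophage markers (7 genes) at 72.0 to 282 CPM in KO and 28.6 to 188 CPM in WT. The T cell genes Cd3g and Cd2 were at 0 in every library. The neutrophil sums of KO and WT libraries did not overlap, those of macrophage markers did, and their part in what follows was not tested.

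Of the 10 transcripts, 8 were lower and 2 were higher in KO cells. In edgeR's quasi-likelihood fit of 17159 genes, 10 of the 10 had an adjusted p under 0.05 at 0, where 0.274% of all genes tested were called. At 20 it was 9 of the 10, against 0.21% of all genes, and at 60 it was 10 of the 10, against 0.268%. The CPM of KO and WT libraries did not overlap for any of the 10 at any level, a pattern found in 13.1% of all genes at 0, 17.3% at 20 and 15.2% at 60. Since the transcripts were picked on these differences, nothing is read from these counts. The smallest difference inside the set was that of Gm15459, at 1.85, 1.29 and 1.96 on the log2 scale at 0, 20 and 60. All 10 passed the filter on low counts. Gm9522, Gm4705 and Gm10154, with at most 3, 5 and 11 counts in a KO library, could pass it only through WT libraries.

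**Figure D1:**
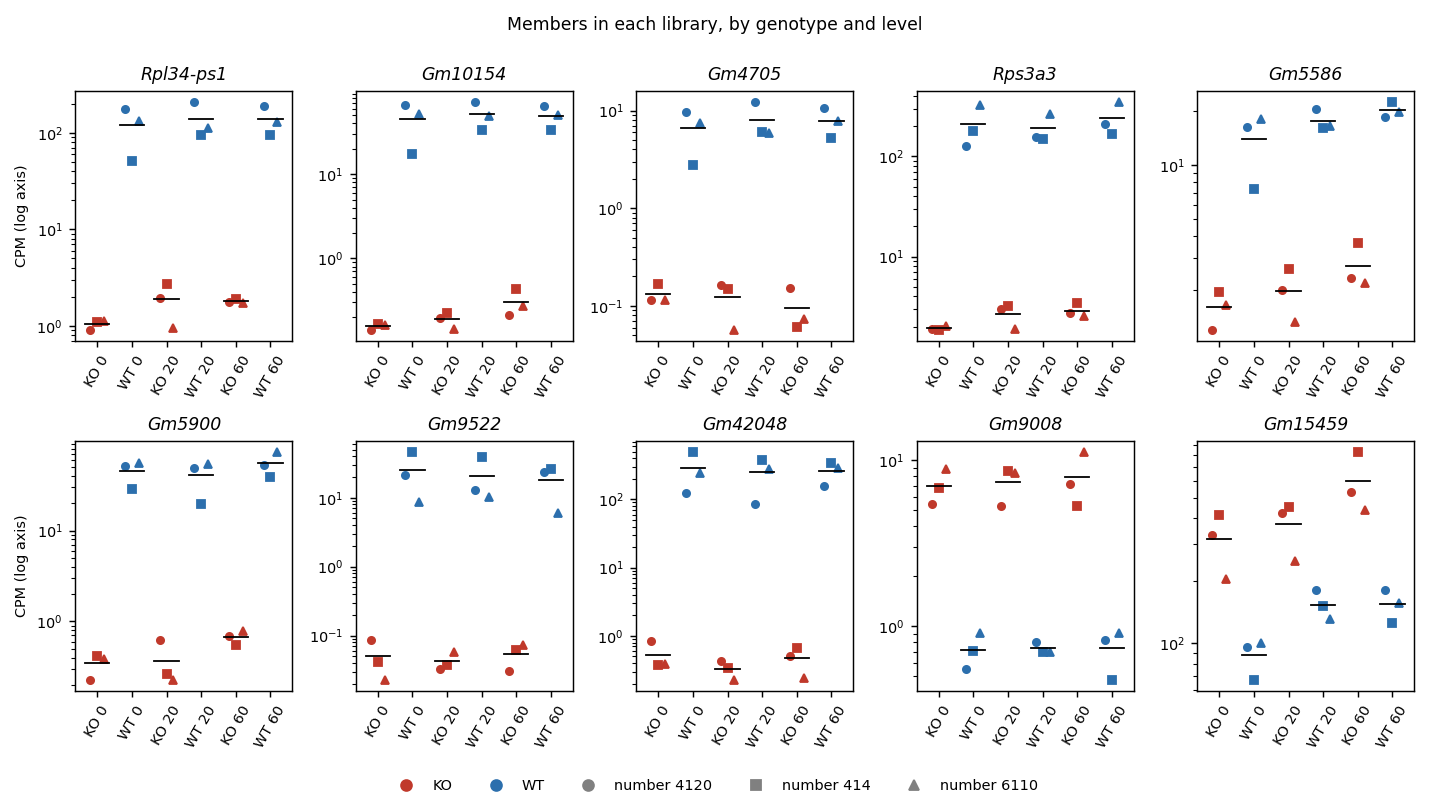
CPM (log axis) of each of the 10 transcripts in the 18 libraries, in columns by genotype and level. Each point is a library, its shape gives the library number, and the bar is the mean of 3. KO libraries (red) lie below WT libraries (blue) in 8 panels and above them for Gm9008 and Gm15459, with no overlap.

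The Rpl34 copies were nearly without reads in KO cells. Rpl34-ps1 had 32, 26 and 49 counts in the KO libraries 4120, 414 and 6110 at 0, against 2867, 1513 and 4209 counts in WT. That is 0.914, 1.08 and 1.12 CPM in KO and 176, 50.8 and 132 CPM in WT. The KO libraries lay close together, and WT 414 was below the other WT libraries. At 20 its levels were 1.96, 2.73 and 0.944 CPM in KO and 208, 95.5 and 113 CPM in WT, and at 60 they were 1.78, 1.90 and 1.73 CPM in KO and 190, 93.9 and 129 CPM in WT. In CPM, WT 4120 was the highest library and WT 414 the lowest WT library at each level. The log2 fold change of KO over WT was −6.84 ± 0.55 at 0, −6.22 ± 0.53 at 20 and −6.25 ± 0.53 at 60 (standard error, SE).

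Gm10154 had 5, 4 and 7 counts in the KO libraries at 0 and 1067, 512 and 1668 counts in WT. Its CPM averaged 0.157 ± 0.0123 in KO and 45.0 ± 25.0 in WT at 0, 0.188 ± 0.0414 in KO and 51.4 ± 19.3 in WT at 20, and 0.303 ± 0.113 in KO and 49.7 ± 15.7 in WT at 60 (SD, n = 3). Gm4705 had 4, 4 and 5 counts in the KO libraries and 159, 83 and 239 in WT at 0. Its CPM averaged 0.132 ± 0.0299 in KO and 6.68 ± 3.56 in WT at 0, 0.123 ± 0.0577 in KO and 8.06 ± 3.63 in WT at 20, and 0.0951 ± 0.0487 in KO and 7.91 ± 2.69 in WT at 60. With counts this low in KO the size of the fold rests on few reads. Summed over 3 libraries, the ratio of WT over KO was 267 for Gm10154 at 0 (95% interval 164 to 468, counting error only) and 48.7 for Gm4705 (28.2 to 92.1).

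In WT the 3 Rpl34 copies kept a narrow ratio to each other. Gm10154 had 0.338 to 0.428 counts per count of Rpl34-ps1 over the 9 WT libraries, and Gm4705 had 0.0522 to 0.0630. In KO, where Gm10154 had 4 to 11 and Gm4705 1 to 5 counts per library, these ratios ran from 0.0822 to 0.226 and from 0.0323 to 0.154. The Gm10154 ratio was thus lower in every KO library than in any WT library, while the Gm4705 ratio of KO libraries spanned that of WT libraries.

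TPM, which are scaled for transcript length, set the copies beside the parent. At 0 Rpl34 had 898, 725 and 1500 TPM in the KO libraries 4120, 414 and 6110 and 121, 408 and 697 TPM in WT. Rpl34-ps1 had 4.72, 3.46 and 6.16 TPM in KO and 522, 249 and 510 TPM in WT. In WT 4120 the copy was thus above its parent, and the same held in WT 4120 at 20, with 637 TPM for Rpl34-ps1 and 144 TPM for Rpl34, and at 60, with 935 and 170 TPM. The 3 copies together took 0.454 to 0.710% of the TPM of Rpl34 and these 3 copies in KO and 45.7 to 88.4% in WT. By number the WT mean over the 3 levels was 86.7% in 4120, 48.7% in 414 and 51.5% in 6110. In number 4120 it ran from 85.9 to 88.4% over the levels, while the mitochondrial share of the same WT libraries was 39.1%, 33.8% and 8.84% at 0, 20 and 60.

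The Rps3a1 copies had the same direction. Rps3a3 had 66, 45 and 89 counts in KO and 2044, 5332 and 10494 in WT at 0, which is 1.88, 1.87 and 2.04 CPM in KO and 126, 179 and 329 CPM in WT. The KO libraries again lie within a narrow range, and here WT 6110 is the highest. At 20 it averaged 2.68 ± 0.694 CPM in KO and 190 ± 64.5 CPM in WT, and at 60 it averaged 2.89 ± 0.471 CPM in KO and 241 ± 95.4 CPM in WT. The log2 fold change was −6.77 ± 0.44, −6.15 ± 0.43 and −6.39 ± 0.44 (SE) at 0, 20 and 60.

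Gm5586, the second Rps3a1 copy, kept more of its reads in KO. It had 1.20, 1.95 and 1.65 CPM in KO and 16.3, 7.35 and 18.2 CPM in WT libraries at 0. At 20 it averaged 1.98 ± 0.652 CPM in KO and 17.6 ± 2.42 CPM in WT, and at 60 it averaged 2.73 ± 0.818 CPM in KO and 20.2 ± 2.03 CPM in WT. The log2 fold change was −3.12 ± 0.35, −3.16 ± 0.35 and −2.90 ± 0.35. Gm5586 had 0.636 to 1.07 counts per count of Rps3a3 in KO libraries and 0.0411 to 0.135 in WT libraries, so the pair was close to equal in KO and far apart in WT. Together they took 0.463 to 0.701% of the TPM of Rps3a1, Rps3a3 and Gm5586 in KO and 31.7 to 46.5% in WT.

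Gm5900 is the one copy of Lamtor3 found in the table. It had 0.228, 0.416 and 0.390 CPM in KO and 52.0, 28.6 and 55.6 CPM in WT libraries at 0, the lowest WT value again being that of 414. At 20 it averaged 0.371 ± 0.217 CPM in KO and 40.8 ± 18.5 CPM in WT, and at 60 it averaged 0.675 ± 0.116 CPM in KO and 55.1 ± 17.1 CPM in WT. The log2 fold change was −7.04 ± 0.51, −6.77 ± 0.51 and −6.31 ± 0.49. In WT 6110 copy and parent were level, with 70.5 TPM for Gm5900 and 69.5 TPM for Lamtor3 at 0. Over levels the share of Gm5900 in the TPM of Lamtor3 and Gm5900 was 0.294 to 0.840% in KO and 21.5 to 52.1% in WT.

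**Figure D2:**
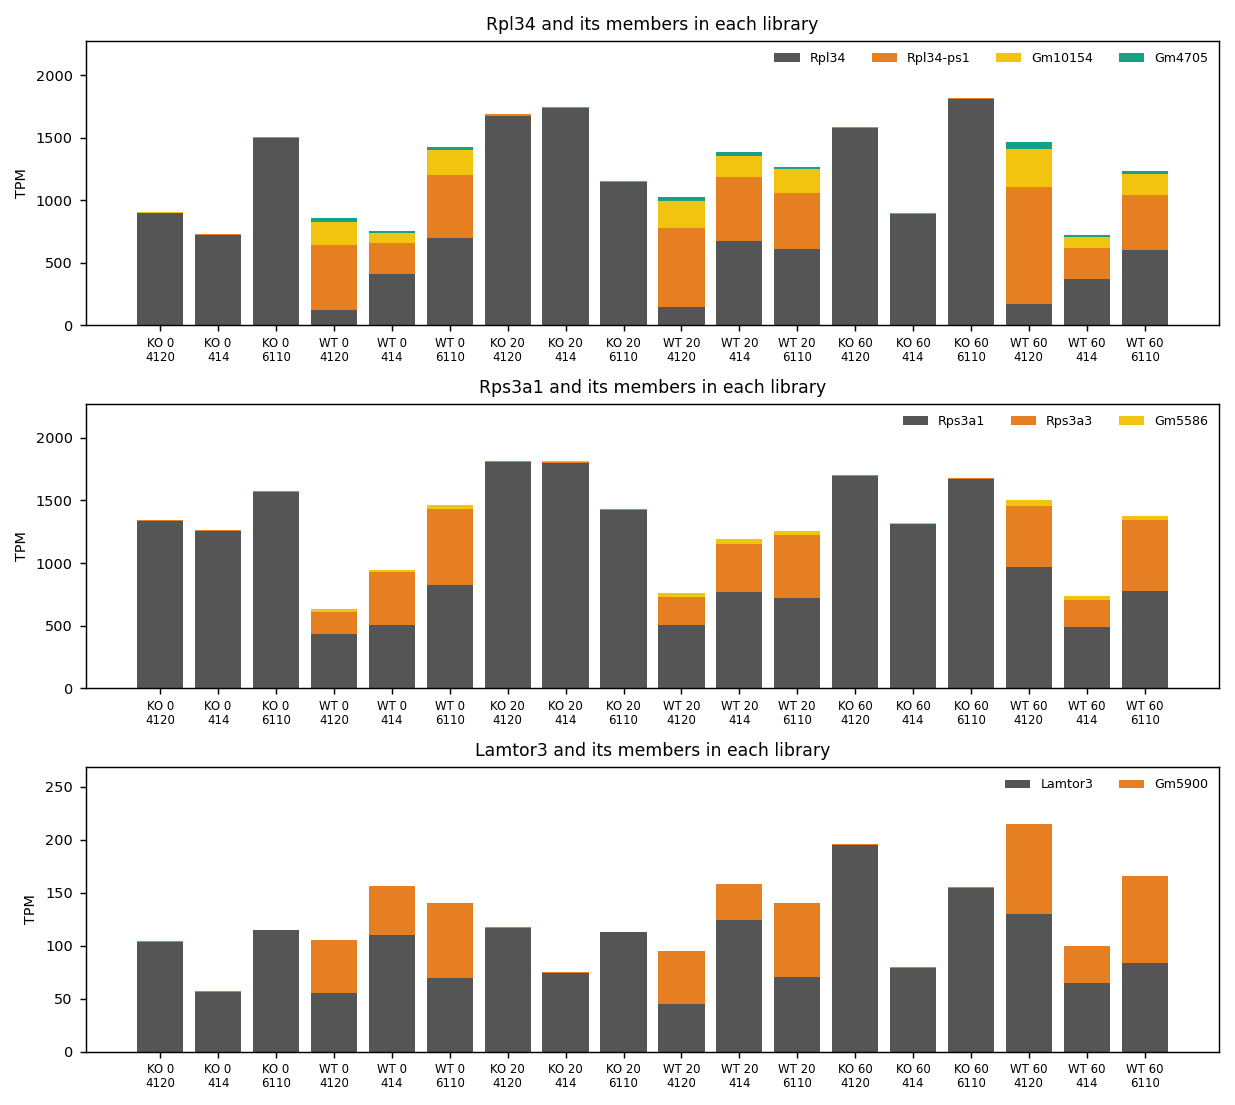
TPM of Rpl34, Rps3a1 and Lamtor3 (grey) with their copies in the set stacked on top (colours), in each library by genotype, level and number. Copies make up at most 0.840% of a column in KO libraries and at least 21.5% in WT libraries. Together these Rpl34 copies exceed Rpl34 itself in the WT libraries numbered 4120 and 6110 and in WT 414 at 20, by most in 4120.

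Gm9522 was at the limit of detection in KO cells. It had 3, 1 and 1 counts in the KO libraries 4120, 414 and 6110 at 0, against 346, 1368 and 273 counts in WT. At 20 it had 1, 1 and 2 counts in KO and 290, 1286 and 337 in WT, and at 60 it had 1, 1 and 3 counts in KO and 814, 487 and 199 in WT. In CPM, WT 414 was the highest and WT 6110 the lowest WT library at each level, and every WT library was above every KO library. Summed over libraries, KO had 5, 4 and 5 counts and WT had 1987, 1913 and 1500 at 0, 20 and 60. The WT over KO ratio was 523 (95% interval 224 to 1612, counting error only), 502 (196 to 1845) and 313 (134 to 965). The 6 KO libraries with a count of 1 were listed at 0.00179 to 0.0427 TPM, so a count of 1 did not stand for a fixed amount of TPM. The intervals hold only if each count is a whole read. In WT Gm9522 was a small part of its family, 0.435 to 7.88% of the TPM of Gapdh and Gm9522 together, against 0.000104 to 0.00832% in KO.

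Gm42048 was nearly without reads in KO cells. It had 29, 9 and 17 counts in KO and 2011, 14660 and 7793 in WT at 0, or 0.828, 0.374 and 0.390 CPM in KO and 124, 492 and 244 CPM in WT. By CPM, WT 414 was the highest and WT 4120 the lowest WT library at each level, the reverse of the order seen for Rpl34-ps1. At 20 it averaged 0.330 ± 0.0981 CPM in KO and 249 ± 151 CPM in WT, and at 60 it averaged 0.477 ± 0.217 CPM in KO and 261 ± 95.9 CPM in WT. The log2 fold change was −9.05 ± 0.76, −9.55 ± 0.78 and −9.18 ± 0.77. It lies on chromosome 8 at 121833991 to 121843902 (GRCm38), where GENCODE places an exon of the long noncoding RNA Gm42047 and an intron of Gm20388.

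Gm9008 was higher in KO cells. It had 192, 164 and 386 counts in KO and 9, 21 and 29 in WT at 0, or 5.48, 6.82 and 8.86 CPM in KO and 0.554, 0.705 and 0.908 CPM in WT. At 20 it averaged 7.42 ± 1.85 CPM in KO and 0.737 ± 0.0615 CPM in WT, and at 60 it averaged 7.93 ± 3.01 CPM in KO and 0.739 ± 0.231 CPM in WT. The log2 fold change was 3.26 ± 0.36, 3.33 ± 0.35 and 3.40 ± 0.35. Its share of the TPM of Rnf26 and Gm9008 varied little between libraries, at 37.0 to 39.8% in the 9 KO libraries and 4.33 to 6.45% in the 9 WT libraries.

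Gm15459, the other copy that was higher in KO, had 222 to 521 TPM in KO libraries, the highest level per length of the 10 in KO. It had 331, 415 and 204 CPM in KO and 96.3, 67.0 and 100 CPM in WT libraries at 0. It had 424, 451 and 249 CPM in KO and 180, 151 and 131 CPM in WT libraries at 20, and 532, 829 and 436 CPM in KO and 181, 125 and 157 CPM in WT libraries at 60. KO 414 was the highest and KO 6110 the lowest KO library at each level. Its share of the TPM of Hspa8 and Gm15459 was 22.2 to 41.1% in KO and 8.17 to 11.9% in WT. Gm15459 and Gm9008 each overlap a GENCODE gene on the opposite strand, Gm26825 and Gm44166, and no label says whether the libraries keep strand, so reads of the partners cannot be told apart.

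**Figure D3:**
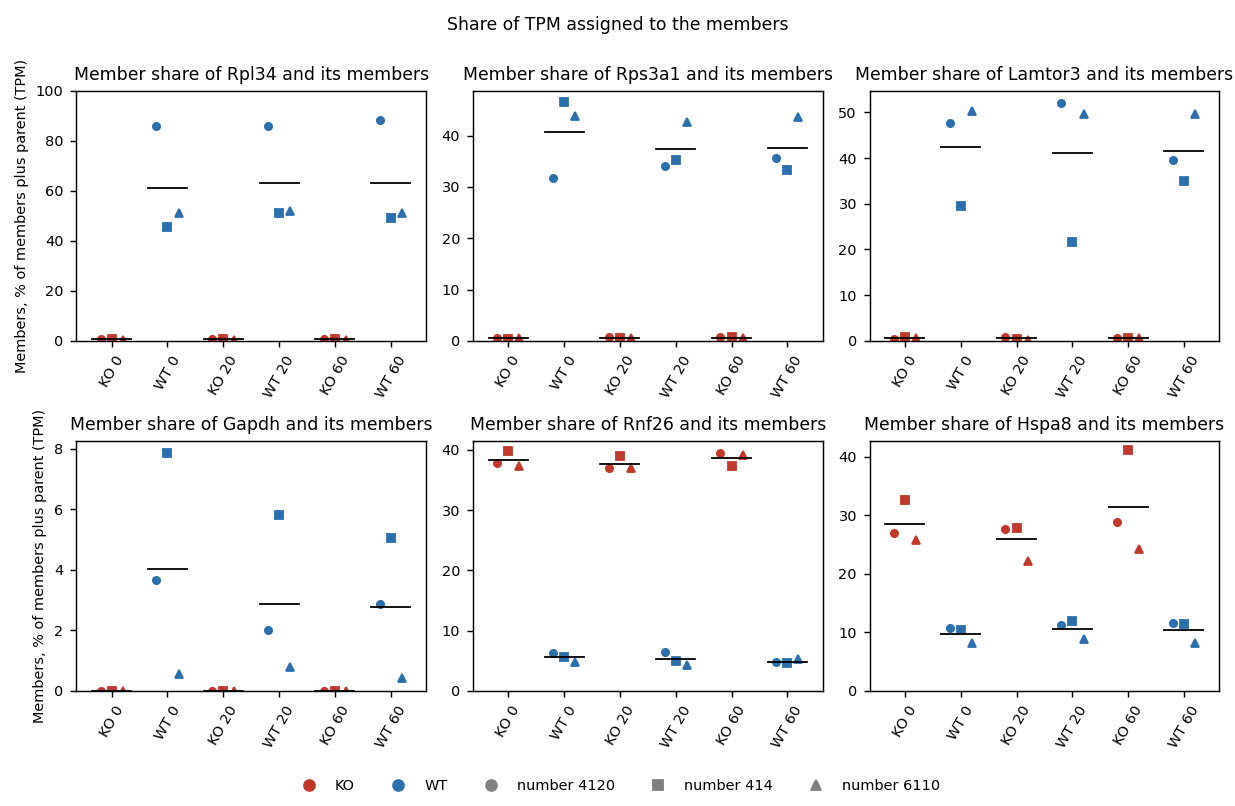
Percent of the TPM of a parent and its copies in this set that was assigned to the copies, for each of 6 parents, in every library by genotype and level. The y axes start at 0 and differ in height, each point is a library and the bar is the mean of 3. KO libraries (red) lie under 1% for Rpl34, Rps3a1, Lamtor3 and Gapdh and above the WT libraries (blue) for Rnf26 and Hspa8.

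The parents themselves were tested, since the set was not picked on them directly. Their counts are not independent of the picked values, because a read can match a near-identical copy and its parent. None of the 6 parents passed at any level in edgeR's test. Of all genes tested, 0.274%, 0.21% and 0.268% were called at 0, 20 and 60, so no call among 6 genes is unremarkable. An unadjusted p under 0.05 was found for 1, 2 and 3 of the 6 at 0, 20 and 60. No share of all genes at that cut is given here. KO and WT libraries did not overlap in CPM for Rps3a1 at 0, 20 and 60, for Rpl34 at 20 and 60 and for Lamtor3 at 60, 6 of 18 comparisons. Among all genes tested this was so for 13.1% at 0, 17.3% at 20 and 15.2% at 60.

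At 0, 20 and 60 Rps3a1 averaged 702 ± 157, 825 ± 166 and 948 ± 177 CPM in KO cells, against 352 ± 127, 373 ± 40.6 and 459 ± 53.4 CPM in WT cells (SD, n = 3). Its log2 fold change was 1.00 ± 0.27, 1.15 ± 0.27 and 1.05 ± 0.27 (SE), with edgeR adjusted p of 0.20, 0.14 and 0.16. DESeq2 called it at all 3 levels, with adjusted p of 0.020, 0.0031 and 0.0089. Rpl34 averaged 273 ± 58.4, 404 ± 114 and 453 ± 81.4 CPM in KO cells, against 127 ± 87.8, 135 ± 68.4 and 145 ± 91.0 CPM in WT cells. Its log2 fold change was 1.10 ± 0.56, 1.58 ± 0.56 and 1.65 ± 0.57, with edgeR adjusted p of 0.44, 0.55 and 0.32. Among the 82 cytosolic ribosomal protein genes tested, Rpl34 and Rps3a1 ranked 2 and 3 from the highest difference at each level, after Rpl29. The other 80 had a median log2 fold change of 0.19, 0.40 and 0.29, against 0.0062, −0.020 and 0.023 for all genes tested, and edgeR called 0 of the 82 at any level. Of the 82, 3, 8 and 7 had an unadjusted p under 0.05 at 0, 20 and 60, and DESeq2 called Rps3a1 at each level and Rpl29 at 0 and 60. Of all genes tested, edgeR called 0.274%, 0.21% and 0.268% at 0, 20 and 60. No share of all genes at the unadjusted cut is given here. The parents whose copies were higher in KO did not show a fall that passed: Rnf26 was at −0.12 ± 0.34, −0.12 ± 0.34 and −0.14 ± 0.34, and Hspa8 at −0.10 ± 0.28, −0.30 ± 0.28 and −0.09 ± 0.28.

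The counts of each parent and its copies in the set were added to 1 row. If each read was counted once, such a sum does not depend on how reads were split between them. Whether each read was counted once is not given. Copies outside the set were not added. The sums include copies picked on this contrast and are read with that in mind. None of the 18 sums (6 families at 3 levels) was called by edgeR. The Rpl34 sum averaged 275 ± 58.5 CPM in KO and 299 ± 119 CPM in WT libraries at 0, and its log2 fold change was −0.12 ± 0.29 at 0, 0.28 ± 0.29 at 20 and 0.42 ± 0.29 at 60. The Rps3a1 sum averaged 706 ± 157 CPM in KO and 577 ± 224 CPM in WT libraries at 0, with log2 fold changes of 0.29 ± 0.28, 0.52 ± 0.28 and 0.41 ± 0.28. The Lamtor3 sum behaved otherwise: it averaged 59.2 ± 5.28 CPM in KO and 106 ± 7.20 CPM in WT libraries at 0, a log2 fold change of −0.84 ± 0.17 with edgeR adjusted p = 0.059. It was at −0.57 ± 0.17 at 20 (adjusted p = 0.39) and −0.25 ± 0.17 at 60 (adjusted p = 0.60). DESeq2 called the Lamtor3 sum at 0 and 20, with adjusted p of 1.2e-05 and 0.026. Lamtor3 alone was at −0.04 ± 0.18 at 0, 0.20 ± 0.18 at 20 and 0.52 ± 0.18 at 60, with no call.

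Copies of the same parents outside the set were found by sequence, at 80% identity or more over 80% or more of the copy. Of 3 other tested copies of Rpl34, Rpl34-ps2 was lower in KO at each level, by log2 fold changes of −4.25, −4.15 and −4.03 (edgeR adjusted p = 0.0049, 0.0052 and 0.0071). Gm10086 was at −2.45, −1.67 and −1.05 without a call, and Gm13786, at 82.2% identity the least like Rpl34, was at 0.17, 0.21 and 0.21. Rpl34-ps2 and Gm10086 carry both T132C and C318G, as the 3 copies in the set do, and Gm13786 carries neither. Of 4 other tested copies of Rps3a1, Rps3a2 was lower at each level, by −1.66, −1.52 and −1.48 (edgeR adjusted p = 0.016, 0.039 and 0.037). Gm13408 and Gm7600 also carry both T216C and T534C and were at −0.42 and 0.21 at 0 without a call. Gm8960 carries 1 of these substitutions and was at −1.08 at 0 without a call. Rps3a2 is 99.5% identical to Rps3a1.

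In the families of Gapdh and Hspa8 edgeR called no further copy. Of all genes tested, 0.274%, 0.21% and 0.268% were called at 0, 20 and 60. The lack of calls in lists this short therefore does not set these families apart. No share of all genes is given here for the unadjusted p below. Of 66 other tested copies of Gapdh, 0 were called at any level by edgeR, and their log2 fold changes at 0 ran from −0.80 to 1.31 with a median of 0.32. DESeq2 called 0 of the 66, and 0, 5 and 3 had an unadjusted p under 0.05 at 0, 20 and 60. Of 6 other tested copies of Hspa8, edgeR called 0, and 2, 1 and 1 had an unadjusted p under 0.05. The one nearest to Gm15459 in its difference was Gm8355, at 1.59, 1.01 and 1.62 (edgeR adjusted p = 0.25 at 0), which DESeq2 called at 60.

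**Figure D4:**
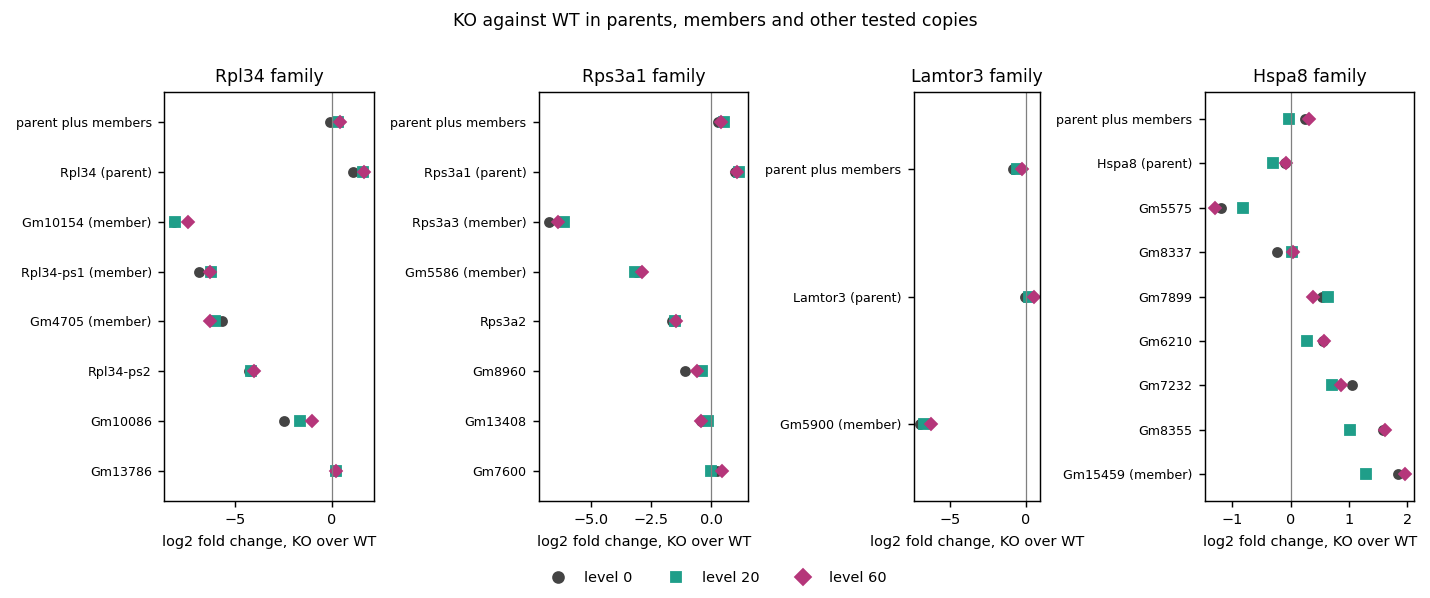
Log2 fold change of KO over WT at 0 (circles), 20 (squares) and 60 (diamonds) for each tested copy of Rpl34, Rps3a1, Lamtor3 and Hspa8, for the parent and for the sum of parent and members of the set. The x axes differ between panels. Members run from −8.13 to 1.96, the parents Rpl34 and Rps3a1 lie between 1.00 and 1.65, and the sums of these families between −0.12 and 0.52.

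The 10 transcripts lie on 8 chromosomes, whereas the 6 parents lie on 3. Rpl34 (130726827 to 130730398), Rps3a1 (86137940 to 86142668) and Lamtor3 (137918555 to 137928762) are all on chromosome 3 (GRCm38), and they are the parents of 6 of the 9 copies. Rnf26 and Hspa8, the parents of the 2 copies that were higher in KO, are on chromosome 9, at 44110781 to 44113051 and 40801276 to 40805202. Gapdh is on chromosome 6. Gm4705 lies in an intron of Mtcl1 and Rps3a3 in an intron of Pde4d.

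The genes close to the 10 transcripts were without a call in edgeR's test. Of 78 other genes tested within 500 kb of their starts, 0 were called in KO against WT at any level by edgeR. Over all genes tested, 0.274%, 0.21% and 0.268% were called at 0, 20 and 60. A count of 0 among 78 therefore does not set these genes apart. Of the 78, 14, 10 and 13 had an unadjusted p under 0.05 at 0, 20 and 60. No share of all genes at that cut is given here, so these counts are not read further. DESeq2 called Klhdc4 and Ppp5c at 0 and Prkd2 at 60, names given after their values were seen. The 20 nearest tested neighbours had log2 fold changes of −1.59 to 1.88, with a lowest adjusted p of 0.22. Near the parents, 2 genes were called by edgeR at 1 or more of the levels. Sh3d19, 1 of 5 genes tested within 500 kb of Rps3a1, lies 0.167 Mb from it. It was at 1.18, 0.89 and 0.87 on the log2 scale at 0, 20 and 60. Nectin1, 1 of 26 tested within 500 kb of Rnf26, lies 0.374 Mb from it and was at −5.43, −6.69 and −5.60. No gene was called within 500 kb of the other parents.

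Responses to level were tested within each genotype, which the choice of the set did not use. None of the 10 transcripts was called in WT at 20 against 0 (0.6% of all genes tested were called) or at 60 against 0 (0.221%). None was called in KO at 20 against 0 (0.449%) or at 60 against 0 (2.54%). At an unadjusted p under 0.05 there were 1, 1, 0 and 2 of the 10, against 990, 1363, 554 and 2440 of all 17159 genes tested. DESeq2 called 0 of the 10 in each of these comparisons, against 200, 258, 138 and 967 of all genes. At such shares, counts among 10 transcripts show neither a response nor its absence. The median log2 change over the 10 was 0.10 and 0.20 in WT and 0.18 and 0.66 in KO, at 20 and 60. Gm15459 had the smallest adjusted p: it averaged 599 ± 205 CPM in KO at 60 and 316 ± 106 CPM at 0, a log2 change of 0.92 ± 0.31 (edgeR adjusted p = 0.15). In WT the same copy averaged 154 ± 27.8 CPM at 60 and 87.9 ± 18.2 CPM at 0, a log2 change of 0.81 ± 0.31 (adjusted p = 0.45). Its parent Hspa8, a gene of the chaperone system, changed by 0.72 ± 0.28 in KO and 0.71 ± 0.28 in WT over the same levels, without a call (adjusted p = 0.22 and 0.47). Gm5900 was at 1.00 ± 0.50 in KO at 60 against 0 (adjusted p = 0.39), where its parent Lamtor3 rose by 0.89 ± 0.18 (adjusted p = 0.014). The Lamtor3 call was lost without KO 4120 at 0 (adjusted p = 0.060) or at 60 (adjusted p = 0.068), without KO 414 at 0 (adjusted p = 0.096) and without KO 6110 at 60 (adjusted p = 0.061).

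The difference between KO and WT in these responses was also fitted. It is made from the KO against WT values at 0 and at 20 or 60, on which the set was picked. It is therefore read as a description. None of the 10 was called at 20 or at 60, where 0% of all genes tested were called. At an unadjusted p under 0.05 there were 0 and 0 of the 10, against 68 and 188 of all genes tested. DESeq2 called 0 of the 10, against 1 and 2 of all genes. The largest value in size at 60 was that of Gm5900, 0.72 ± 0.62, and at 20 that of Rpl34-ps1, 0.62 ± 0.63. For the transcripts with few counts in KO the standard error is wide, up to 1.90 for Gm9522 at 20. The value itself was 0.11 there, and an SE derived from the F statistic is least sure for so small a value.

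The genes whose log2 CPM followed the transcripts most closely over the 18 libraries were named by their Pearson correlation, the 3 highest for each, as a description. All 10 separate KO from WT libraries, and a correlation over both genotypes carries that difference. Gbp2b, an interferon-induced GTPase gene, was among the 3 for 6 of the 10, with r of 0.961 to 0.989. Rpl34-ps2 was among the 3 for 5 of the 10 (0.954 to 0.982), and Gm5900 and Gm5586, which have other parents, are among these 5. Map9, a microtubule-associated protein gene, was among the 3 for Gm42048, Gm9522 and Rps3a3 (0.970 to 0.985). Gm9008 was followed by Clba1 (0.979), Hmgn1 (0.972) and Tspan5 (0.946), and Gm15459 by its sister copy Gm8355 (0.936), Pdcl3 (0.931) and Ly6c2 (0.925).

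Among all 1315 annotated pseudogenes tested, which include 9 of the 10 transcripts, 5 were called higher and 10 lower in KO at 0, 1 and 13 at 20, and 5 and 10 at 60. Their median log2 fold change was 0.09, 0.14 and 0.25, against 0.0062, −0.020 and 0.023 for all genes tested. Without the members, 3 of 1306 were higher and 3 lower at 0, 0 and 6 at 20, and 3 and 3 at 60. The 114 pseudogenes that name a ribosomal protein had 0 higher and 3 lower at each level, with medians of 0.06, 0.33 and 0.34. Those 3 are Rpl34-ps1 and Rps3a3, both in the set, and Rps3a2. The list goes by name, so Gm10154, Gm4705 and Gm5586, copies of Rpl34 or Rps3a1 by sequence, are outside it. Rpl34-ps2, called lower at each level, is outside it too. Of 64 genes called at any level, 10 were the transcripts of the set.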

How the data were processed

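Per the submitters' processing notes, reads were handled with bcl2fastq 2.20.0 and FastQC 0.11.7, aligned with HISAT2 2.1.0 to mm10 and quantified with StringTie 2.1.3b. Per the labels, a TruSeq kit was used on total RNA for mRNA libraries, with no word on strand. The authors deposited 1 table of 45777 genes. Per the file headers each library has a count, which is not normalized, an FPKM and a TPM. How a read that matches a copy and its parent was assigned is not given in the sources used here, and the level of a near-identical copy rests on it.

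Counts were fitted with edgeR 4.0.16 (R 4.3.3) by quasi-likelihood, with filterByExpr (17159 genes kept), TMM factors and 1 mean for each of 6 groups over 18 libraries. An adjusted p (Benjamini-Hochberg over all genes tested) under 0.05 was a call. The SE of a log2 fold change is its size divided by the square root of edgeR's F statistic. It is approximate, most of all for small changes and low counts. CPM use TMM-scaled library sizes, with a prior count of 2 for correlations. Shares used the deposited TPM. Parents came from blastn 2.17.0 against GENCODE M21 transcripts, and for Rpl34-ps1 the description names the same parent. Positions came from RefSeq (GRCm38.p6), which held 99.8% of the gene IDs, and biotypes from the deposited table. Intervals on ratios of summed counts are exact at 95% and cover counting error only.

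The members and lists were chosen with earlier results of these data known. Named besides the members are their parents, other called copies of these parents, the called genes and nearest neighbours within 500 kb, the 3 genes most like each member, and Sirt6. Copies named for their shared bases were chosen after their values were seen. Alternatives were DESeq2 1.42.0, other size factors, no filter, limma 3.58.1 on log2(TPM + 1) and log2(TPM + 0.1) for genes with a mean TPM of at least 0.5 in a group, the compared groups alone, the library number as a block, and each library left out. Same-numbered libraries deviated together (every correlation over 0.1) for KO against WT at 60 (0.431 to 0.526), WT 20 against 0 (0.622 to 0.763), KO 20 against 0 (0.398 to 0.582) and KO 60 against 0 (0.333 to 0.667), and not for KO against WT at 0 or 20 or for WT 60 against 0. This pairing is read from the data, not from the labels. No 2 libraries of a group held identical counts. The scripts were tested on simulated data before use.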

Additional observations from a re-analysis of the deposited data

How the results depend on the processing

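No called value of a member, a parent or a sum changed direction under any alternative run. The number of the 10 transcripts called in KO against WT was 10, 9 and 10 at 0, 20 and 60. It was 8, 9 and 9 with only the compared groups in the fit, 10 at 20 with DESeq2 (Gm15459 added), and 9 to 10, 9 and 9 to 10 with each library left out. Gm5586 at 0 and Gm15459 at 0 and 60 lost their calls in that smaller fit. Gm15459 also lost its call at 0 without WT 4120, WT 414 or KO 414 and at 60 without WT 414 or KO 414. The members were picked on this contrast, so these counts are no sign of stability.

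The counts over all genes, the background, moved more. In KO against WT at 0, 47 genes were called, against 251 with DESeq2, 208 with the library number as a block, 14 with only the compared groups and 27 to 48 with each library left out. At 20 it was 36, against 119, 119, 19 and 22 to 31, and at 60 it was 46, against 226, 183, 17 and 28 to 51, in the same order. With DESeq2 the share of calls that were higher at 60 was 43.4%, against 30.4%. For WT 20 against 0 it was 103, against 200 with DESeq2, 158 with the block, 66 and 67 on log2(TPM + 1) and log2(TPM + 0.1), 46 with only the compared groups and 47 to 101 with each library left out. For WT 60 against 0 it was 38, against 258, 206, 0, 0, 0 and 0 to 74 in the same order, and 4 with library size alone. For KO 20 against 0 it was 77, against 138 with DESeq2 and 54 to 76 with each library left out. For KO 60 against 0 it was 436, against 967 with DESeq2, 1094 with the block, 74 and 73 on the log2 TPM scales, 202 with only the compared groups, 163 with library size alone and 177 to 366 with each library left out. For the difference in response 0 genes were called at 20 and at 60, against 1 and 2 with DESeq2, 1 at 20 without the filter, and 0 to 1 and 0 with each library left out. In all 4 responses and both differences in response, 0 of the 10 transcripts were called under each alternative run, the block and each left-out library included. The cause of these shifts was not tested.

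Of the 18 sums of a parent and its copies 0 were called, against 2 with DESeq2 and 2 with the block (Lamtor3 at 0 and 20) and 1 with RLE size factors (Lamtor3 at 0, adjusted p = 0.038), and 0 with each library left out. The share of a copy in copy plus parent did not overlap between KO and WT libraries in 27 of 27 comparisons (27 to 27 with each library left out), which follows from the choice of the copies and is no sign of stability. The Lamtor3 rise in KO at 60 lost its call with library size alone, without the filter, with only the compared groups and on the log2 TPM scales. The block changed no other call of a member, a parent or a sum, and among genes within 500 kb of a member it called Ccdc8 at each level and Prkd2 at 60. Values without a call sometimes had the opposite sign under an alternative, counted here over pairs of a value and an alternative run. For the members' responses it was 107 pairs, against 853 labelled the same. For the parents it was 58 against 518, and for the sums 7 against 186. Library size alone moved the median log2 fold change of all genes by 0.16 at 0 and 20 in KO against WT and by −0.22 in KO 60 against 0. Gm9522 and Gm4705, with 1 to 5 counts in a KO library, and Gm10154, with 4 to 11, have folds limited by that depth.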
